A study of Mus musculus with 6 samples.

Results

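The 59 genes described here encode the machinery of mitosis: the cyclins and kinases that start it, the kinetochore and spindle that move chromosomes, the checkpoint that times their separation, condensin, and the apparatus of cytokinesis. They were listed by symbol and by their known roles, with earlier results of these data known, and each symbol matched 1 row of the 55414 genes in the deposited table. RNA-seq libraries came from natural killer (NK) cells, innate killer lymphocytes, of mouse liver, with 3 libraries from mice given metformin, a glucose-lowering biguanide, at 200 mg per kg for 3 days, and 3 libraries from control mice given phosphate-buffered saline (PBS), all labelled day 3. All mice were of the WT genotype and no other agent is named. The labels state no strain, age, sex or gate for isolating the cells, and nothing says whether the libraries came from separate or pooled mice. P-values therefore measure the spread between these libraries, which may be technical.

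A cell that enters mitosis needs CDK1 bound to cyclin A or B, which the polo and Aurora kinases help to activate. Sister chromatids are held together until every kinetochore is attached to the spindle; the anaphase-promoting complex with CDC20 then destroys securin and cyclin B, which frees separase to open cohesin. These genes are transcribed mainly late in the cell cycle, repressed in resting cells by the DREAM complex and activated in cycling cells by B-MYB, FOXM1 and the MuvB core. Their RNA in a mixed sample is widely used as a sign of how many cells are dividing, and liver NK cells are mostly resting lymphocytes that divide on stimulation by cytokines. In bulk RNA, fewer dividing cells and less mitotic RNA per cell cannot be told apart.

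The metformin libraries held 22152167 to 24266803 estimated reads, 22459 to 24376 of them on the members, and the PBS libraries 24838302 to 30161214, with 32032 to 53130 on the members. Every member had reads in all 6 libraries, and all 59 passed the filter on low counts. Markers listed for NK cells and type 1 innate lymphoid cells (ILC1) together were high throughout. In CPM (read counts scaled to library size by TMM), the sum of 12 was 23600 to 27000 with metformin and 22200 to 24500 with PBS. This sum does not tell NK cells from ILC1. Single markers of this list did differ: Eomes, a transcription factor of NK cell identity, had 216.5, 211.5 and 208.5 CPM with metformin, against 311.5, 341.9 and 329 CPM with PBS (log2 fold change -0.63, SE 0.09, unadjusted p = 8.5e-05), and Gzmb, granzyme B, was higher with metformin (log2 fold change 0.49, SE 0.14, unadjusted p = 0.0091). In 5 further genes of the 12 the groups did not overlap, Prf1 and Tbx21 being lower with metformin and Klrb1c, Nkg7 and Klre1 higher, none at an unadjusted p under 0.05. Markers listed for other cells had reads as well. The sum of 10 T cell markers was 807 to 983 CPM with metformin and 497 to 603 CPM with PBS (two-sided exact permutation p = 0.1, the smallest possible with 3 against 3). Trbc1 and Trbc2 made up most of this sum in every library. Trbc1 was at 371.1 to 479.1 CPM with metformin and 289.1 to 297 CPM with PBS. Trbc2 was at 231.7 to 310 CPM with metformin and 163.7 to 190.5 CPM with PBS. These genes did not follow Trac. PBS 1 had 289.2 CPM of Trbc1 and 163.7 CPM of Trbc2 with 8.43 CPM of Trac, and PBS 3 had 289.1 and 185.9 CPM with 32.8 CPM. The sum is therefore not a measure of T cells alone, and which cells the Trbc1 and Trbc2 RNA came from was not tested. Cd3d, Cd3e and Cd8a were also higher with metformin without overlap, while Trac, Cd4, Cd8b1, Cd5 and Cd6 overlapped between groups. The sums of the other lists overlapped between groups, at 236 to 873 CPM with metformin and 188 to 413 CPM with PBS for 7 B and plasma cell markers. The same ranges were 498 to 898 CPM with metformin and 435 to 628 CPM with PBS for 11 monocyte and macrophage markers, and 73 to 294 CPM with metformin and 59.2 to 149 CPM with PBS for 9 hepatocyte markers. The 5 basophil and mast cell markers summed to 5.47 to 10.8 CPM with metformin and 8.60 to 10.3 CPM with PBS, the 5 dendritic cell markers to 45.8 to 64.8 CPM with metformin and 54.8 to 65.6 CPM with PBS, and the 8 endothelial and stellate cell markers to 123 to 125 CPM with metformin and 113 to 177 CPM with PBS. Single markers in the lists with overlapping sums did separate the groups. Csf1r was lower with metformin (log2 fold change -0.80, edgeR unadjusted p = 0.0014), as were Mcpt8, Prss34 and Tfrc. Adgre1 was higher (1.24, edgeR unadjusted p = 0.0092), as was C1qa (2.58, edgeR unadjusted p = 0.0030). Ly6c2 and Lyz2 made up most of the monocyte and macrophage sum. No marker of these lists was at 0 in all libraries, and their part in the results was not tested.

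Promoter motifs, which the choice of members did not use, were counted in a fixed window. It ran from 250 bases before to 50 bases after the transcription start and was taken from RefSeq (GRCm38.p6), 1 window a gene, for 50 members, all but Incenp, Dlgap5, Tpx2, Smc4, Ccna2, Foxm1, Spc24, Aurkb and Kif20a. The cell cycle genes homology region (CHR; TTTGAA or TTCGAA on either strand), the element to which MuvB complexes bind, was present in 38 of these 50 windows (76.0%), against 14.8% of 10811 windows of genes tested and 19.4% of all 27025 windows. A CCAAT box (CCAAT on either strand), bound by the factor NF-Y, was present in 36 (72.0%), against 39.0% of genes tested and 37.9% of all. Both stood in 32 windows (64.0%), against 6.35% of genes tested and 7.70% of all, and 22 windows (44.0%) had at least 2 CCAAT boxes, against 15.1% and 12.2%. An E2F site (TTTCCCGC, TTTCGCGC, TTTGCCGC or TTTGGCGC on either strand) was found in 5 windows (10%), against 4.04% of genes tested and 2.32% of all. Matches that overlap each other were counted separately, and a match is a string of letters, not a shown binding site.

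**Figure D1:**
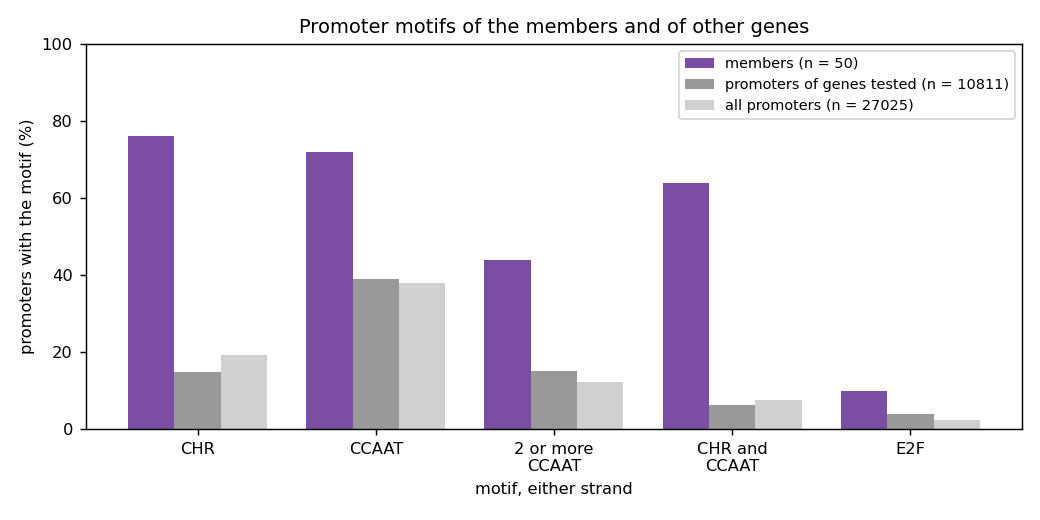
Share of promoter windows (%) that hold each motif on either strand, for 50 members, for genes tested and for all windows. The bars of the members are the tallest for every motif, at 76.0% for the CHR and 72.0% for CCAAT.

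The following windows are shown because they belong to genes on which the results turn, 4 of them among the members with the smallest p, Ube2c for its row of CCAAT boxes, and Pttg1 as the member that was higher. Capitals mark CHR, CCAAT and E2F matches, and each sequence runs 5′ to 3′ on the gene's strand.
Top2a (chr11:99024140-99024439, minus strand): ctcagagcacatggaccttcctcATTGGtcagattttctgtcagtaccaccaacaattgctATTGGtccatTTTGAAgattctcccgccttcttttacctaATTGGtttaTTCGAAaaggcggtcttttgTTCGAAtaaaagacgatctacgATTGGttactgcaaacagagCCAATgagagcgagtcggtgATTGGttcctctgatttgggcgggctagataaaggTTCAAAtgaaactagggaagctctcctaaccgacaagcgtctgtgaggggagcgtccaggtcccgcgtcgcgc
Mki67 (chr7:135716330-135716629, minus strand): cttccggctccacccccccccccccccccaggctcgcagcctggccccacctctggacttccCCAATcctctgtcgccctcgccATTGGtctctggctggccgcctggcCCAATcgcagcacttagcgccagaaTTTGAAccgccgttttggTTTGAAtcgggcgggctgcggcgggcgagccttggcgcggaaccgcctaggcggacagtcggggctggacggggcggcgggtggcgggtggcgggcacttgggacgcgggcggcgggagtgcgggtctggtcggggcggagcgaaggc
Espl1 (chr15:102296043-102296342, plus strand): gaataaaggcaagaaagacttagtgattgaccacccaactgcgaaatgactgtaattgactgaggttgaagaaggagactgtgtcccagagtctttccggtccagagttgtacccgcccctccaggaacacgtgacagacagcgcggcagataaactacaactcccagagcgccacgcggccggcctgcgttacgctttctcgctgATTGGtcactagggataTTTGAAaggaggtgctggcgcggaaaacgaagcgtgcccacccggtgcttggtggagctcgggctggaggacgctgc
Bub1 (chr2:127831810-127832109, minus strand): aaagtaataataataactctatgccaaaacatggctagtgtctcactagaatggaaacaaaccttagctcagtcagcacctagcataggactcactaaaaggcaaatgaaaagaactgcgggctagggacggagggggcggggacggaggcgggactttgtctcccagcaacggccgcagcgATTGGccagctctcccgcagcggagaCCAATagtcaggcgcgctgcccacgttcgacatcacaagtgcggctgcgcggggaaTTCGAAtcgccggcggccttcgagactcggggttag
Ube2c (chr2:164769679-164769978, plus strand): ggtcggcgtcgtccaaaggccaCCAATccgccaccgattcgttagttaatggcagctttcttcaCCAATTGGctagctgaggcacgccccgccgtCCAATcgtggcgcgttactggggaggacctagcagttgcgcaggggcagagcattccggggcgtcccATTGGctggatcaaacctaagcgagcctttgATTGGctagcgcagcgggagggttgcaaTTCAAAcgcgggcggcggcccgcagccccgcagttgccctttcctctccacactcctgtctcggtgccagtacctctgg
Pttg1 (chr11:43425932-43426231, minus strand): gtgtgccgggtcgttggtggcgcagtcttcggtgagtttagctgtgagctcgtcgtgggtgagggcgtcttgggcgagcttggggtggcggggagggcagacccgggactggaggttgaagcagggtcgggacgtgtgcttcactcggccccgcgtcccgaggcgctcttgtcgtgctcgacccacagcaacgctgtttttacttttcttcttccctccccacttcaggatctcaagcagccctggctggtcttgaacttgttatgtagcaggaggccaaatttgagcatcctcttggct
Top2a, which encodes DNA topoisomerase II alpha, held 4 CHR and 6 CCAAT matches, and Ube2c, the ubiquitin-conjugating enzyme of the anaphase-promoting complex, 1 and 6. Mki67 held 2 and 3, Bub1 1 and 2, and Espl1 1 and 1, its CHR starting at position -27 and its CCAAT box at -44 from the transcription start. No motif was found in the window used for Pttg1. Other start sites of Pttg1 were not scanned, so this does not describe its whole promoter. The median log2 fold change was -0.77 both in the 38 with a CHR and in the 12 with none (ranges -1.62 to 0.15 and -0.97 to 0.38).

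Most mitotic genes had lower values after metformin, although edgeR called no single gene when adjusted over all genes. Of the 59 members 57 had a log2 fold change (metformin over PBS) below 0, against 49.1% of all 15527 genes tested, and the median was -0.75, against 0.0053 for all genes. By edgeR's quasi-likelihood test 39 members were lower at an unadjusted p under 0.05 and 1, Pttg1, was higher. That is 66.1% of members lower, against 5.08% of all genes lower and 5.29% higher. In 39 members all metformin libraries lay below all PBS libraries (9.63% of all genes), in 1 above (9.49% of all genes), and in 19 the groups overlapped. At an adjusted p of 0.05 edgeR called 0 members and 0 of all genes (0%), with a smallest member adjusted p of 0.168; limma-voom also called 0 members, both plain and with quality weights (0.058% of all genes called lower with weights). DESeq2 called 16 members, all lower, against 0.979% of all genes called lower.

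Summed over all 59 members the level was 1067, 984.1 and 984.2 CPM in metformin libraries 1, 2 and 3, against 1956, 1315 and 1273 CPM in PBS libraries 1, 2 and 3, or 1012 ± 47.9 CPM with metformin and 1515 ± 383 CPM with PBS (SD, n = 3 each). The metformin libraries lay close together and below every PBS library, and PBS 1 stood far above the other PBS libraries. PBS 1 was the highest of the 6 libraries in 51 members, while metformin 3 was the lowest in 27 and metformin 2 in 21. PBS 1 also differed in its traces of immature blood cells: Mpo, a granule enzyme of myeloid progenitors, was at 12.3, 7.30 and 8.76 CPM with metformin, against 130, 12.2 and 11.2 CPM with PBS. Elane, the neutrophil elastase made at the same stage, was at 0.219, 0.250 and 0.701 CPM with metformin, against 10.5, 0.452 and 0 CPM with PBS. The whole list of 7 neutrophil markers, to which both belong, summed to 12.6 to 34.9 CPM with metformin and 16.3 to 149 CPM with PBS, and that of 8 erythroid markers to 59.9 to 117 CPM with metformin and 66.1 to 120 CPM with PBS. The erythroid genes Klf1 and Car1 were highest in PBS 1 too, at 4.01 and 28.8 CPM. Prtn3, Ctsg, Ms4a3 and Cd34, further genes of blood progenitors that were looked up after these values were seen, were at 11.5, 7.77, 2.10 and 39.1 CPM in PBS 1 and at no more than 1.01, 1.01, 0.482 and 12.5 CPM in the other 5 libraries. In Cd34 the groups were apart without PBS 1 as well, at 7.88, 7.68 and 8.41 CPM with metformin, against 11.2 and 12.5 CPM in PBS 2 and PBS 3. Kit, a receptor of progenitors and mast cells, was at 50.3, 50.7 and 23.4 CPM with metformin, against 111, 76.8 and 74.2 CPM with PBS, lower with metformin than in any PBS library. The part of these cells in the mitotic RNA of PBS 1 was not tested.

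With that library left out, the member median was -0.45, 53 members had a log2 fold change below 0, and 20 were lower at an unadjusted p under 0.05 (33.9%) with 0 higher, against 2.9% of all genes lower (edgeR; smallest member adjusted p = 0.483). All of these 20 were among the 39. In 39 members all 3 metformin libraries lay below both PBS 2 and PBS 3 (66.1%, against 13.8% of all genes). Without metformin 2 the count lower at an unadjusted p under 0.05 was 23, with a median of -0.74. Without metformin 3 that count was 33, with a median of -0.70.

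**Figure D2:**
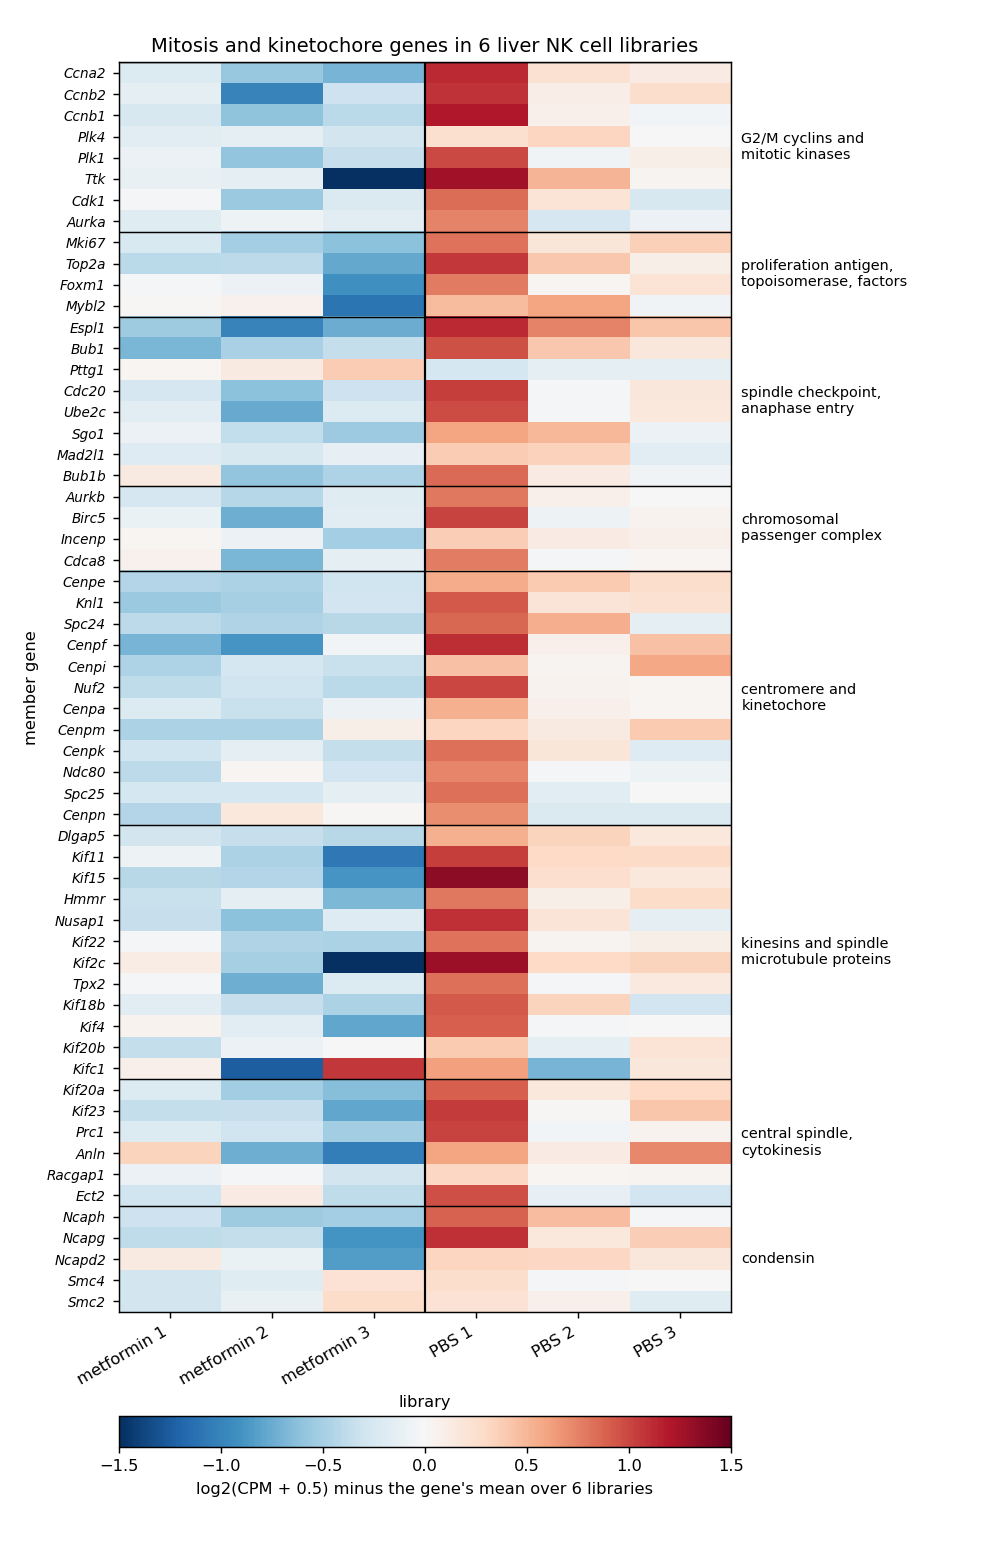
Expression of the 59 members in each library, as log2(CPM + 0.5) minus the gene's mean over the 6 libraries, grouped by role, on a colour scale that ends at 1.5 in each direction, with metformin libraries left of the line. PBS 1 is the most red column and is the highest library in 51 members; Pttg1 runs the other way.

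Among the genes that mark or drive proliferation, the groups did not overlap in 3 of 4, and 3 were lower at an unadjusted p under 0.05, against 2 of 4 without PBS 1. Mki67 (Ki-67, which coats mitotic chromosomes) had 39.9, 32.5 and 30.3 CPM with metformin, against 82.3, 53.0 and 59.7 CPM with PBS. Top2a had 45.2, 45.4 and 34.9 CPM with metformin, against 125, 79.0 and 63.7 CPM with PBS. In both, PBS 1 was highest and no library of either group reached into the other, with a log2 fold change of -0.93 for Mki67 and -1.09 for Top2a (edgeR adjusted p = 0.226 and 0.261). Both also stood apart from PBS 2 and PBS 3 alone, at -0.73 and -0.78 with PBS 1 left out. Foxm1, a transcription factor of G2/M genes, had 15.5, 14.8 and 8.11 CPM with metformin, against 27.4, 16.1 and 18.3 CPM with PBS. Foxm1 had a log2 fold change of -0.68 (SE 0.29, unadjusted p = 0.048), or -0.43 without PBS 1, then at an unadjusted p above 0.05. Its gap was narrow, with metformin 1 at 15.5 just under PBS 2 at 16.1 CPM. Mybl2, which encodes B-MYB, had 7.13, 7.38 and 3.02 CPM with metformin, against 9.98, 10.8 and 6.79 CPM with PBS, and its groups overlapped. For Mybl2 the log2 fold change was -0.65 (SE 0.36, unadjusted p = 0.11).

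Of 8 G2/M cyclins and mitotic kinases 6 were lower at an unadjusted p under 0.05, with a median of -0.87, against 2 of 8 and -0.42 without PBS 1. Ccna2, cyclin A2 of S phase and early mitosis, had 22.4, 17.2 and 15.7 CPM with metformin, against 56.9, 30.3 and 28.2 CPM with PBS. Ccna2 had a log2 fold change of -1.06 (SE 0.28, unadjusted p = 0.0052), or -0.68 without PBS 1. Ccnb1, cyclin B1, had 12.1, 9.26 and 10.7 CPM with metformin, against 33.6, 15.1 and 13.9 CPM with PBS. For Ccnb1 the log2 fold change was -0.97 (SE 0.34, unadjusted p = 0.021), or -0.45 without PBS 1, then at an unadjusted p above 0.05. Ccnb2, the related cyclin B2, had 14.6, 7.84 and 13.1 CPM with metformin, against 35.1, 17.5 and 19.7 CPM with PBS. Ccnb2 had a log2 fold change of -1.02 (SE 0.32, unadjusted p = 0.013), or -0.66 without PBS 1. For the cyclins the groups did not overlap, but PBS 1 lay far above the rest. Cdk1, the kinase they activate, had 14.1, 9.68 and 12.3 CPM with metformin, against 26.2, 16.7 and 12.2 CPM with PBS, and PBS 3 lay among the metformin values. For Cdk1 the log2 fold change was -0.61 (SE 0.29, unadjusted p = 0.067). Plk1, a polo kinase of the spindle and centrosome, had 10.9, 7.59 and 9.12 CPM with metformin, against 23.8, 11.3 and 12.5 CPM with PBS. Plk1 had a log2 fold change of -0.78 (SE 0.31, unadjusted p = 0.034), or -0.38 without PBS 1, then at an unadjusted p above 0.05. Aurka, the Aurora kinase of the spindle poles, had 10.5, 11.3 and 10.7 CPM with metformin, against 20.4, 9.93 and 11.2 CPM with PBS. Only PBS 1 stood out for Aurka, and without it the log2 fold change was 0.02, against -0.35 with all libraries. Ttk, the checkpoint kinase MPS1, and Plk4, which duplicates centrioles, had log2 fold changes of -1.30 and -0.39, with no overlap of the groups, or -0.88 and -0.38 without PBS 1, both then at an unadjusted p above 0.05.

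The spindle checkpoint and anaphase group held both the member with the smallest p and the only one higher at an unadjusted p under 0.05. Of its 8 genes 6 were lower at that threshold, with a median of -0.78, against 3 of 8 and -0.47 without PBS 1. Espl1 (ENSMUSG00000058290.5, chromosome 15, 102204701 to 102232792 in the deposited table's own coordinates, whose build is not stated there), which encodes separase, had 6.17, 4.34 and 5.30 CPM with metformin, against 20.5, 15.7 and 12.5 CPM with PBS. The lowest PBS library thus had 12.5 CPM and the highest metformin library 6.17 CPM, a log2 fold change of -1.62, the largest decrease among members (edgeR unadjusted p = 0.00016, adjusted p = 0.168; -1.43 without PBS 1). Pttg1 (ENSMUSG00000020415.17, chromosome 11, 43311077 to 43317078), which encodes securin, the inhibitor of separase, had 56.3, 60.6 and 71.5 CPM with metformin, against 45.6, 49.8 and 49.8 CPM with PBS. Every metformin library was above every PBS library, with PBS 1 the lowest of all. Its log2 fold change was 0.38 (SE 0.12, edgeR unadjusted p = 0.012, adjusted p = 0.376). Without PBS 1 it was 0.32, at an unadjusted p above 0.05. The ratio of Espl1 to Pttg1 CPM was 0.110, 0.0716 and 0.0742 with metformin, against 0.448, 0.315 and 0.250 with PBS. It joins the members with the lowest and the highest log2 fold change, so it restates their values and is no separate result. Securin RNA was the most abundant of the members per length, at a mean of 164 TPM (a length-scaled unit) with metformin and 142 TPM with PBS, while separase RNA had 1.26 TPM with metformin and 3.70 TPM with PBS. The log2 fold change of Pttg1 was 0.27 with a gene length offset and 0.21 on log2(TPM + 1).

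Bub1, a checkpoint kinase at the kinetochore, had 5.08, 5.88 and 6.49 CPM with metformin, against 16.9, 11.4 and 9.59 CPM with PBS. For Bub1 the log2 fold change was -1.12 (SE 0.26, unadjusted p = 0.0023). Cdc20, the activator of the anaphase-promoting complex, had 17.4, 13.4 and 16.6 CPM with metformin, against 43.4, 20.4 and 23.5 CPM with PBS. Cdc20 had a log2 fold change of -0.88 (SE 0.28, unadjusted p = 0.014), or -0.49 without PBS 1. Ube2c had 12.2, 7.97 and 11.9 CPM with metformin, against 27.7, 13.6 and 15.5 CPM with PBS. For Ube2c the log2 fold change was -0.82 (SE 0.30, unadjusted p = 0.026), or -0.45 without PBS 1, then at an unadjusted p above 0.05. None of the 3 overlapped between groups. Bub1b, Mad2l1 and Sgo1, the checkpoint proteins BUBR1 and MAD2 and the protector of centromeric cohesion, overlapped, with log2 fold changes of -0.65, -0.40 and -0.75, or -0.33, -0.31 and -0.62 without PBS 1, where none had an unadjusted p under 0.05. Cdc20 overlaps Elovl1 on the other strand in the table, as Nusap1, Ccna2, Cdca8, Ncapg, Prc1, Cenpk, Kif20a and Kif4 overlap expressed genes; whether counting used the strand is not known from the labels, so reads of such pairs may be mixed.

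In the chromosomal passenger complex, which corrects faulty attachments, 3 of 4 subunits were lower at an unadjusted p under 0.05 with all libraries and 0 without PBS 1. Aurkb, its kinase, had 12.8, 11.3 and 13.4 CPM with metformin, against 26.9, 16.2 and 15.4 CPM with PBS. Aurkb had a log2 fold change of -0.64 (SE 0.24, unadjusted p = 0.026), or -0.35 without PBS 1, then at an unadjusted p above 0.05. Birc5, survivin, had 17.9, 11.3 and 16.9 CPM with metformin, against 39.1, 18.1 and 19.9 CPM with PBS. For Birc5 the log2 fold change was -0.74 (SE 0.31, unadjusted p = 0.046), or -0.32 without PBS 1, then at an unadjusted p above 0.05. PBS 2 at 18.1 and metformin 1 at 17.9 CPM nearly met in Birc5. Incenp, the scaffold, and Cdca8, borealin, had log2 fold changes of -0.37 and -0.54, or -0.28 and -0.24 without PBS 1, and the groups overlapped for Cdca8.

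Centromere and kinetochore genes were lower at an unadjusted p under 0.05 in 7 of 12, with a median of -0.75, and in 5 of 12 without PBS 1. Cenpe, a kinesin that carries chromosomes to the spindle equator, had 7.49, 7.34 and 8.37 CPM with metformin, against 15.4, 13.8 and 12.5 CPM with PBS. The metformin libraries lay close together, and PBS 1 was only a little above PBS 2 (log2 fold change -0.85, SE 0.18, unadjusted p = 0.0013, adjusted p = 0.239; -0.78 without PBS 1). Cenpf, a large outer kinetochore protein, had 5.91, 5.13 and 9.60 CPM with metformin, against 21.9, 10.4 and 13.6 CPM with PBS. Cenpf had a log2 fold change of -1.15 (SE 0.34, unadjusted p = 0.0092). Cenpa, the histone H3 variant that marks centromeres, had 27.2, 24.8 and 29.4 CPM with metformin, against 45.5, 33.1 and 32.0 CPM with PBS, a smaller difference. For Cenpa the log2 fold change was -0.44 (SE 0.16, unadjusted p = 0.025), or -0.27 without PBS 1, then at an unadjusted p above 0.05. The NDC80 complex, which holds microtubules, gave mixed values: Spc24 was lower at a log2 fold change of -0.94, as was Nuf2 at -0.84 (-0.71 and -0.44 without PBS 1, with Nuf2 then at an unadjusted p above 0.05), and Spc25 had a log2 fold change of -0.53 with overlap. Ndc80 had 10.9, 14.8 and 11.8 CPM with metformin, against 24.4, 14.3 and 13.7 CPM with PBS, with overlap. Ndc80 had a log2 fold change of -0.48 (SE 0.26, unadjusted p = 0.096). Differences between the subunits were not tested. Knl1, the scaffold for BUB proteins, was lower (log2 fold change -0.98, SE 0.25, unadjusted p = 0.0047), as was Cenpi (log2 fold change -0.80, SE 0.26, unadjusted p = 0.014). Cenpm, Cenpk and Cenpn of the inner kinetochore had log2 fold changes of -0.62, -0.69 and -0.24 at 2.61 to 6.21 CPM per group mean.

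Among 12 kinesins and spindle proteins 9 were lower at an unadjusted p under 0.05, with a median of -0.75, against 4 of 12 and -0.43 without PBS 1. Kif11, the motor that pushes spindle poles apart, had 26.4, 19.9 and 13.1 CPM with metformin, against 57.7, 34.4 and 34.2 CPM with PBS. For Kif11 the log2 fold change was -1.09 (SE 0.29, unadjusted p = 0.0057). Kif15, which can share that task, had a log2 fold change of -1.34, and Kif2c, which takes microtubules apart, one of -1.29, with metformin 3 lowest in each, or -0.84 and -0.88 without PBS 1, with Kif2c then at an unadjusted p above 0.05. Tpx2, which activates Aurora A at the spindle, had 16.9, 10.1 and 14.8 CPM with metformin, against 30.7, 17 and 19.0 CPM with PBS, with PBS 2 at 17 and metformin 1 at 16.9 CPM all but touching (log2 fold change -0.67, SE 0.27, unadjusted p = 0.039, or -0.38 without PBS 1, then at an unadjusted p above 0.05). Dlgap5, a spindle protein also called HURP, had 9.15, 8.72 and 8.24 CPM with metformin, against 16.4, 14.2 and 12.5 CPM with PBS, with PBS 1 only a little above PBS 2. Dlgap5 had a log2 fold change of -0.73 (SE 0.18, unadjusted p = 0.0033). Nusap1 and Hmmr, which encode spindle assembly proteins, and Kif22, a motor that binds chromosomes, had log2 fold changes of -0.89, -0.83 and -0.67 with the groups apart, and the motor genes Kif18b, Kif4 and Kif20b -0.77, -0.65 and -0.32 with overlap. Without PBS 1 these were -0.45, -0.60, -0.38, -0.41, -0.27 and -0.20, and of the 6 only Hmmr kept an unadjusted p under 0.05. Kifc1, a motor that draws spindle poles together, had 2.19, 0.584 and 4.82 CPM with metformin, against 3.39, 1.07 and 2.37 CPM with PBS, scattered in both groups. For Kifc1 the log2 fold change was 0.15 (SE 0.71, unadjusted p = 0.84). Its estimated counts were not whole in any library and those of its near-identical copy Kifc5b, 28.6 to 43.3 reads with metformin and 38.5 to 50 reads with PBS, were not either, so its reads are shared and its values uncertain.

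**Figure D3:**
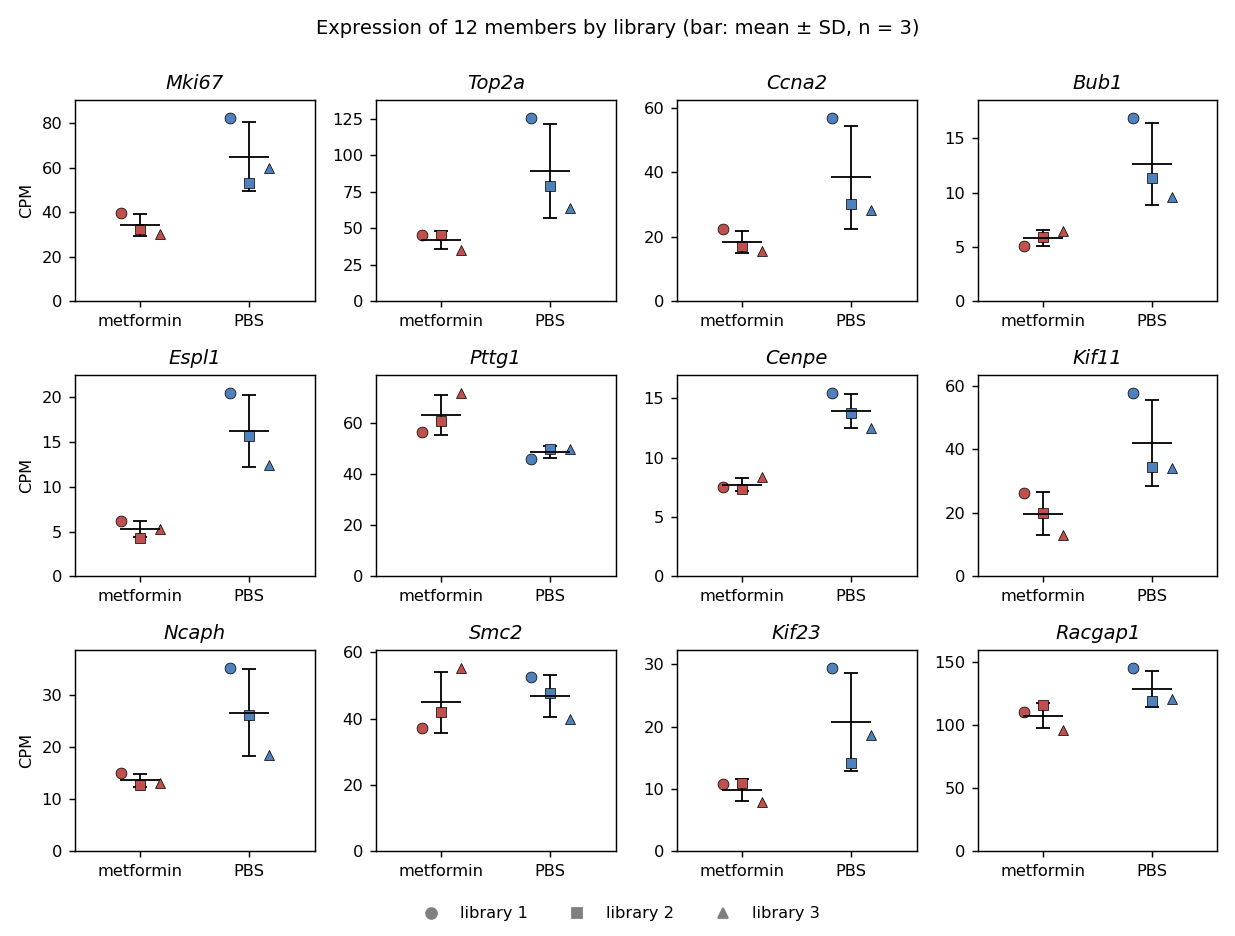
CPM of 12 members in each library, with metformin left of PBS, symbols for library number, and bars for the mean ± SD (n = 3). Groups are apart in Mki67, Top2a, Ccna2, Bub1, Espl1, Cenpe, Kif11, Ncaph, Kif23 and Racgap1, reversed in Pttg1 and overlapping in Smc2.

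Of 6 genes of the central spindle and cytokinesis 3 were lower at an unadjusted p under 0.05, with a median of -0.85, against 2 of 6 and -0.54 without PBS 1. Kif23 and Racgap1 encode the partners of centralspindlin, which builds the midzone. Kif23 had 10.8, 10.9 and 7.89 CPM with metformin, against 29.3, 14.2 and 18.7 CPM with PBS. Kif23 had a log2 fold change of -1.07 (SE 0.28, unadjusted p = 0.0049). Racgap1 had 110.4, 116 and 96.4 CPM with metformin, against 145, 119.5 and 121 CPM with PBS, a high level with a small gap. For Racgap1 the log2 fold change was -0.26 (SE 0.12, unadjusted p = 0.06). Prc1, which bundles antiparallel microtubules, had 19.7, 18.5 and 15.8 CPM with metformin, against 46.9, 22.3 and 23.7 CPM with PBS. Prc1 had a log2 fold change of -0.78 (SE 0.28, unadjusted p = 0.024), or -0.36 without PBS 1, then at an unadjusted p above 0.05. Anln, anillin of the contractile ring, had 8.14, 3.63 and 2.85 CPM with metformin, against 9.79, 6.94 and 10.8 CPM with PBS, with metformin 1 among the PBS values. For Anln the log2 fold change was -0.91 (SE 0.40, unadjusted p = 0.053). Kif20a, a motor of the central spindle, was lower (log2 fold change -0.97, SE 0.25, unadjusted p = 0.0041), and Ect2, which switches on RhoA at the equator, had a log2 fold change of -0.48 with all libraries and 0.03 without PBS 1.

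Of 5 condensin genes, whose proteins compact chromosomes, 2 were lower at an unadjusted p under 0.05, with a median of -0.49. Ncaph, the kleisin of condensin I, had 15.0, 12.8 and 13.0 CPM with metformin, against 35.1, 26.1 and 18.5 CPM with PBS. Ncaph had a log2 fold change of -0.96 (SE 0.23, unadjusted p = 0.0029). Ncapg, a HEAT-repeat subunit of condensin I, had 8.49, 8.64 and 5.78 CPM with metformin, against 24.5, 12.6 and 14.6 CPM with PBS. For Ncapg the log2 fold change was -1.18 (SE 0.29, unadjusted p = 0.0037). Neither overlapped between groups. Ncapd2, the other HEAT subunit, had 49.8, 42.4 and 25.3 CPM with metformin, against 57.1, 56.6 and 51.1 CPM with PBS, with metformin 3 far below the rest. Ncapd2 had a log2 fold change of -0.49 (SE 0.22, unadjusted p = 0.059). Smc2 had 37.3, 42.1 and 55.2 CPM with metformin, against 52.7, 47.7 and 40.0 CPM with PBS. Smc4 had 85.8, 91.7 and 121 CPM with metformin, against 125, 102 and 105 CPM with PBS. These ATPases, shared by condensin I and II, overlapped between groups and were highest in metformin 3 (Smc2) or PBS 1 (Smc4), with log2 fold changes of -0.06 and -0.15. The ratio of Ncapg to Smc2 CPM was 0.227, 0.205 and 0.105 with metformin, against 0.465, 0.264 and 0.366 with PBS. It joins the most and the least lowered of the 5 genes, so it restates their values and is no separate result. Of the condensin II subunits, which are not among the 59, Ncapg2 had a log2 fold change of -1.24 (SE 0.41), Ncapd3 -0.42 (SE 0.22) and Ncaph2 -0.07 (SE 0.10).

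The 10 members with the highest mean TPM over all libraries (Pttg1, Smc4, Racgap1, Smc2, Cenpa, Incenp, Birc5, Ube2c, Mad2l1 and Cdk1, 26.1 to 153 TPM) had a median log2 fold change of -0.38, and the other 49, at 1.55 to 24.3 TPM, one of -0.80. Over the 59 genes, which share their libraries, the Spearman correlation of level with log2 fold change was 0.423. The order of the members by TPM was nearly the same after metformin as with PBS (Spearman correlation 0.978 across genes). Pairs of members correlated over the 6 libraries with a median Pearson r of 0.795 in log2 CPM, and with Mki67 the median was 0.877 and the lowest value -0.939, for Pttg1; these points share the group difference and PBS 1.

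**Figure D4:**
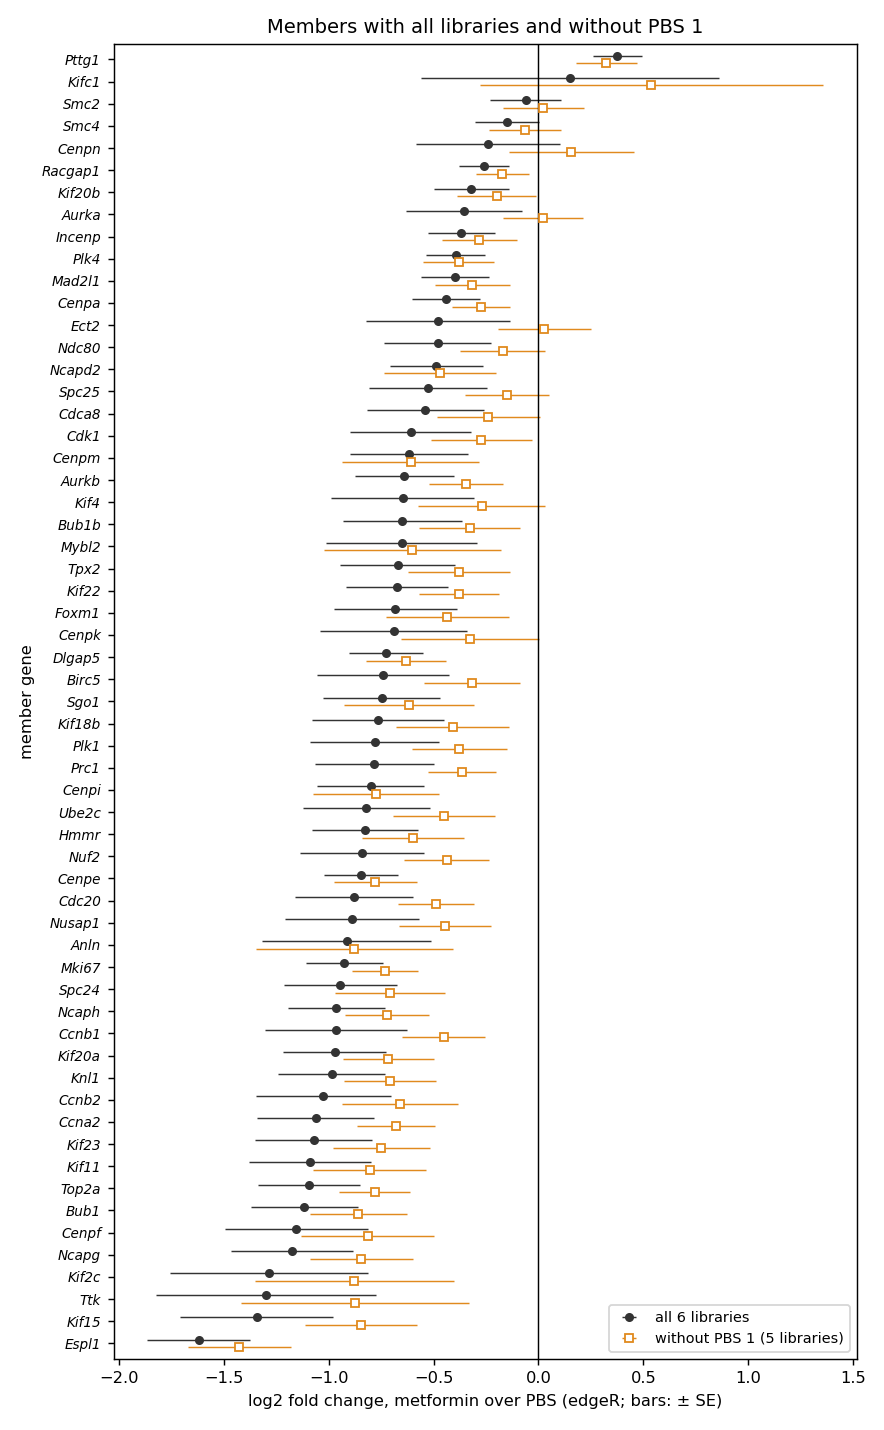
Log2 fold change of each member (metformin over PBS, edgeR, bars ± SE) with all 6 libraries and without PBS 1, ordered by the first. Squares lie to the right of the circles for most members, with a median of -0.45 against -0.75.

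The rest of the cell cycle program was followed in lists of genes outside the members. Of 73 other mitotic genes 25 were lower at an unadjusted p under 0.05 and 0 higher (34.2%, against 5.08% of all genes), with a median of -0.53, or 13 lower and -0.26 without PBS 1. The smallest p among them belonged to Cep55, which recruits the abscission machinery, at 4.38 ± 1.03 CPM with metformin and 10.4 ± 2.20 CPM with PBS (SD, n = 3 each), followed by Lmnb1 (lamin B1) at 51.6 CPM with metformin and 79.8 CPM with PBS. Depdc1b averaged 6.18 CPM with metformin and 12.2 CPM with PBS, and Cdc25b, a phosphatase that activates CDK1, 50.8 CPM with metformin and 77.7 CPM with PBS. Of 52 genes of DNA replication and S phase 16 were lower at an unadjusted p under 0.05 (30.8%) and 0 higher. Their median was -0.29, or -0.24 without PBS 1, where 7 were lower at that threshold. By sign alone 50 of the 52 were below 0 and 2 above. E2f2 averaged 12.1 CPM with metformin and 24.9 CPM with PBS, and the checkpoint kinase gene Chek1 3.53 CPM with metformin and 7.04 CPM with PBS. Rrm2 of ribonucleotide reductase averaged 40.4 CPM with metformin and 68.6 CPM with PBS, and Dtl, which helps destroy CDT1, 13.5 CPM with metformin and 25.7 CPM with PBS. The sum of the 52 genes was 2751, 2815 and 2470 CPM with metformin, against 3447, 3410 and 2767 CPM with PBS. In this sum PBS 3 lay among the metformin libraries. For E2f2, Chek1, Rrm2 and Dtl themselves every PBS library was above every metformin library.

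Of 15 genes of the anaphase-promoting complex 0 were lower and 3 higher at an unadjusted p under 0.05 (Anapc16, Anapc13 and Anapc11, log2 fold changes of 0.25 to 0.45), with a median of -0.0021, and the next in order of p was Anapc5 at -0.25. Over all genes tested 5.08% were lower and 5.29% higher at this threshold, which also holds for the counts of the next lists. Of 12 cohesin genes 2 were lower (16.7%) and 0 higher, with a median of -0.24: Esco2, an acetyltransferase of S phase, at 3.77 CPM with metformin and 9.29 CPM with PBS, and Wapl, which releases cohesin, at 159 CPM with metformin and 193 CPM with PBS. Pds5b and Stag1 followed at -0.35 each. Of 28 G1 cyclins, CDK inhibitors and RB, E2F and MuvB genes 27 were tested, 3 were lower (11.1%) and 1 higher, with a median of -0.06. Tfdp1, the partner of E2F factors, averaged 51.6 ± 3.38 CPM with metformin and 80.0 ± 10.7 CPM with PBS (SD, n = 3 each; log2 fold change -0.63, SE 0.12, edgeR adjusted p = 0.225). Tob1 and Cdk2 were at -0.32 and -0.30, and Cdkn2b, the CDK4/6 inhibitor p15, was the 1 higher, at 3.88 CPM with metformin and 1.93 CPM with PBS. Over all genes edgeR called 0 genes of these lists, while DESeq2 called 10 other mitotic genes, 6 S phase genes, 1 cohesin gene (Esco2) and 1 gene of the G1 list (Tfdp1), all lower, and 0 of the anaphase-promoting complex. DESeq2 called 0.979% of all genes lower.

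**Figure D5:**
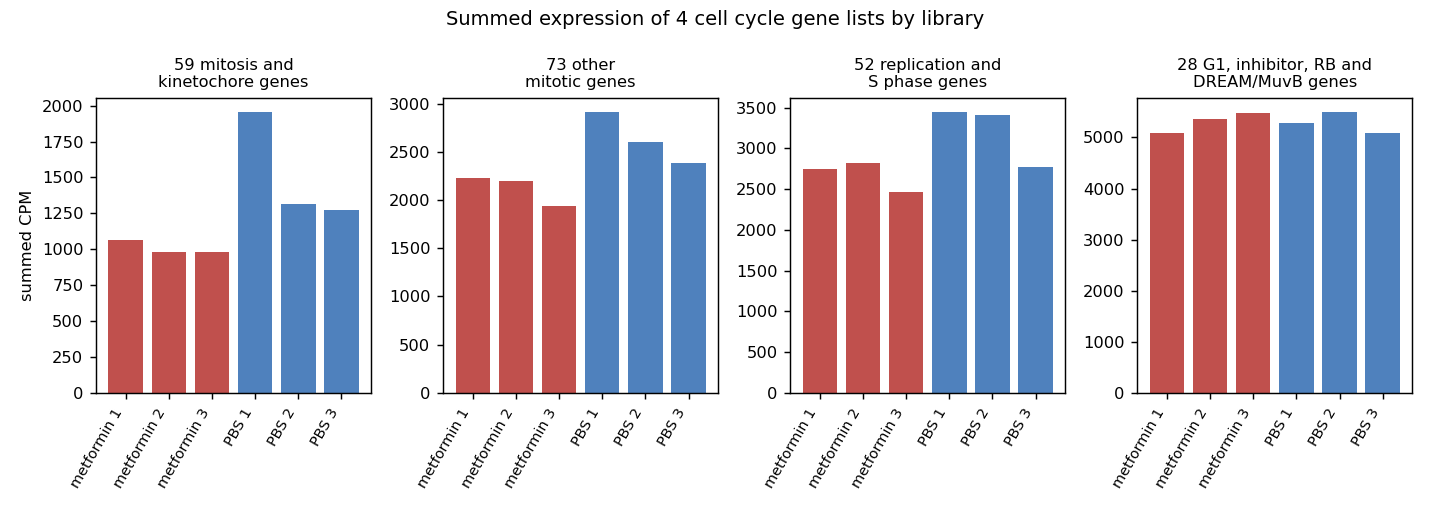
Summed CPM of 4 gene lists in each library, metformin libraries left of PBS libraries. The sum of the 59 members is 984.1 to 1067 CPM with metformin and 1273 to 1956 CPM with PBS, while that of the G1, inhibitor, RB and MuvB list overlaps between groups.

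Gene length moved with the libraries. Across genes, each library's log2 CPM minus the gene's mean correlated with gene length at a Spearman value of -0.103, 0.150 and -0.434 in metformin libraries 1, 2 and 3, against 0.0672, 0.304 and 0.345 in PBS libraries 1, 2 and 3, and members were longer than genes at large (median 3645 bases, against 2997). With a length trend removed from each library the member median was -0.72, against -0.75 in the main fit. The count of members lower at an unadjusted p under 0.05 was then 36, against 39. The part of gene length in the lower values was not tested.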

How the data were processed

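RNA-seq of liver NK cells was analysed in 3 metformin and 3 PBS libraries, each prepared with SMART-seq per the labels' protocols. The submitters' processing notes name DRAGEN and the builds GRCm39 and mm10, without roles or version. The authors deposited 1 table with an estimated count of reads and a TPM value per gene and library; each value column matched a library by name (0 left over). The estimated counts, deposited by the authors with fractions for some genes, were rounded and fitted with edgeR's quasi-likelihood test (edgeR 4.0.16, limma 3.58.1, R 4.3.3; TMM scaling, filterByExpr), p-values being adjusted by Benjamini-Hochberg over 15527 genes; the threshold was 0.05. The common biological coefficient of variation was 27.3%. DESeq2 1.42.0, limma-voom, other scalings and filters, limma on log2(TPM + 1), a gene length offset, the replicate block and each library left out in turn were alternatives. Replicates of a group differed beyond sampling noise in every pair (chi-square per degree of freedom 14.9 to 63.6). The pairs with metformin 3 had 63.6 and 59.4, and the other pairs 14.9 to 24.5. No batch is given in the labels. Genes and lists were chosen with earlier results of these data known. Values in every library are given for 28 members listed by name, the 8 with the smallest p and the 4 with the highest log2 fold change; Kif23, Racgap1 and Ncapd2 were added after their values were seen. In each other list up to 4 genes with the smallest p are named, and the condensin II subunits were added.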

Additional observations from a re-analysis of the deposited data

How the results depend on the processing

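With 3 libraries a group, edgeR called 0 genes over all genes (1610 at an unadjusted p under 0.05), so counts of members at an unadjusted p are descriptions. DESeq2 called 299 genes, limma-voom with quality weights 36, the fit with no filter on low counts 1 and the gene length offset 1; leaving out a library gave 0 to 1. DESeq2 called 16 members lower, against 0 by edgeR. Members lower at an unadjusted p under 0.05 numbered 20 to 40 with a library left out (20 without PBS 1, 23 without metformin 2) and 34 to 45 under the other alternatives, against 39. The member median log2 fold change was -0.90 to -0.45 with a library left out and -0.76 to -0.68 otherwise, and the log2 ratio of summed CPM -0.70 to -0.37 with a library left out. Kifc1 ranged from -0.72 to 0.62 with a library left out and changed sign with limma-voom (-0.20), with quality weights (-0.57), on log2(TPM + 1) (-0.12), with the replicate block (-0.12), without metformin 3 (-0.72) and without PBS 2 (-0.19). Smc2 changed sign with the gene length offset (0.10) and ranged from -0.24 to 0.051 with a library left out, being above 0 without metformin 1 and without PBS 1 (0.023). Aurka ranged from -0.55 to 0.022, Ect2 from -0.71 to 0.029 and Cenpn from -0.41 to 0.16, each highest and above 0 without PBS 1. The cause was not tested. Same-numbered libraries share only a number (correlations of their deviations 0.177, 0.0997 and 0.164); with it as a replicate block 3 genes were called, 0 of them members, and 45 members were lower at an unadjusted p under 0.05, against 5.02% of all genes.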

Other observations

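Outside the 59 genes, the 5 whose log2 CPM followed Mki67 most closely over the 6 libraries, of 10395 compared at a mean of at least 5 CPM, were Hs2st1, Trps1, Nfs1, A630001G21Rik and Sdad1 (Pearson r 0.978 to 0.981). The correlation does not measure the size of a change: in that order their log2 fold changes were -0.20, -0.49, -0.08, -0.31 and -0.37, against -0.93 for Mki67. Their libraries share the group difference and PBS 1, and no test of the likeness was made. Trps1, a GATA-type repressor, averaged 13.0 ± 0.350 CPM with metformin and 18.2 ± 1.48 CPM with PBS (SD, n = 3 each).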
